A study of Homo sapiens with 8 samples.

Results

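The comparison described here is between FDX1-overexpressing and control lymphoma cells that had both received elesclomol. Its members are the gene rows with at least 1 FPKM (fragments counted per length of the gene model and per size of the library) in at least 2 of the 4 elesclomol libraries, 11885 of 60592 rows. The cells are WSU-DLCL2, an established human line from a diffuse large B-cell lymphoma. Control cells, labelled WT, and FDX1-OE cells, labelled FDX1 overexpression, were cultured for 48 h with 15 nM elesclomol (ES) or with its solvent DMSO, which gives the groups control ES, FDX1-OE ES, control DMSO and FDX1-OE DMSO with 2 libraries each. The vector, the promoter that drives FDX1, whether the FDX1-OE cells are 1 clone, and what the control cells carry are not given in the sources used here. The labels do not say whether the 2 libraries of each group stem from separate cultures; the p-values then reflect the spread of these samples alone, and that spread may be technical.

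FDX1 is ferredoxin 1, a small iron-sulfur protein of the mitochondrial matrix that hands electrons to other enzymes and is needed for the lipoylation of mitochondrial enzymes. Elesclomol carries copper into cells; FDX1 can reduce the copper it brings, and copper overload of lipoylated mitochondrial proteins is known as cuproptosis. The other pathway that fills the results below is the interferon response, in which receptors signal through JAK kinases to transcription factors that switch on antiviral genes through a promoter element called ISRE.

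FDX1 itself was measured at 9.88 and 10.0 FPKM in control ES and 60.7 and 59.4 FPKM in FDX1-OE ES, with no overlap and little spread within either group. In DMSO it was at 10.8 and 10.4 FPKM in control DMSO and 59.8 and 56.0 FPKM in FDX1-OE DMSO. The excess of FDX1 message was thus a ratio of 6.03 under ES, a log2 difference of 2.48 (SE 0.06, adjusted p = 1.71e-06), and the difference between this and the effect in DMSO was 0.13 (SE 0.09, adjusted p = 0.325). All differences in the text are FDX1-OE less control on the log2(FPKM + 1) scale unless stated, a scale on which changes of weakly expressed genes look smaller than they are. A value in parentheses after FPKM is this log2 difference, with its standard error (SE) and adjusted p where given.

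Some of the genes with the largest rises hold the ISRE letters just before a start, and their sequences are shown here because the largest group of rises consists of interferon-stimulated genes. The element was searched as GAAA, any 2 bases and GAAA again, on both strands, in the 250 bases before each start in RefSeq's GRCh38.p14 promoters. These are the 8 matched members with the largest rises that hold it, each with up to 15 flanking bases, 5′ to 3′ on the gene's strand. Only the match nearest a start is in capitals (2 runs of TTTC where the match is on the other strand). Flanking bases were not marked, and in IFIT1 the flank before the capitals holds a further match.
MX1, chr21:41431839-41431878, plus strand: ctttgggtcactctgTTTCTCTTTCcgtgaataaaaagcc
IFI44L, chr1:78620360-78620399, plus strand: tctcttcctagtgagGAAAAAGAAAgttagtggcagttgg
IFITM1, chr11:313985-314024, plus strand: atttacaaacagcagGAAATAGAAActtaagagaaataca
IFI6, chr1:27672261-27672300, minus strand: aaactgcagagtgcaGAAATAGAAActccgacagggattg
IFIT3, chr10:89332463-89332502, plus strand: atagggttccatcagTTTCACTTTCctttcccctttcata
IFIT1, chr10:89392505-89392544, plus strand: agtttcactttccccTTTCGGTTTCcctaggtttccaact
IFI44, chr1:78649756-78649788, plus strand: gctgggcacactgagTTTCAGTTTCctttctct
RSAD2, chr2:6877617-6877656, plus strand: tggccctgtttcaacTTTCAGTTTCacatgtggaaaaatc
In MX1 the match lies at bases -196 to -187 before 1 of the gene's 3 listed starts, in IFI44L at -73 to -64 and in IFI44 at -18 to -9. Of the 32 antiviral effector members 25 had an entry, and 17 of these held the letters before at least 1 of their starts, against 3.71% of all 27305 genes of the table and 3.45% of the matched members, counted in the same way. Entries were found for 75.0% of members with a symbol of their own, too few for a comparison of shares between groups of genes, which is therefore void. A match describes letters, not a bound site.

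Metallothionein promoters are shown for the same reason, because their genes rose and because metal response elements (MRE) define them. MREs were searched as TGCACNC and TGCGCNC on both strands, and matches may overlap. The matches are in capitals, with 7 in MT2A and 4 in MT1X, and these short motifs are common: 28.5% of all genes of the table and 40.3% of the matched members hold at least 1.
MT2A, chr16:56608334-56608583, plus strand: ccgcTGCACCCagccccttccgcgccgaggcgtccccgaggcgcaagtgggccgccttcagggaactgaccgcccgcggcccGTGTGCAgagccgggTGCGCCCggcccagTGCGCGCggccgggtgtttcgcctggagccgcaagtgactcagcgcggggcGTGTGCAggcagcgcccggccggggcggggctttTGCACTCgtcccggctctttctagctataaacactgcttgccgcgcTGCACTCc
MT1X, chr16:56682305-56682438, plus strand: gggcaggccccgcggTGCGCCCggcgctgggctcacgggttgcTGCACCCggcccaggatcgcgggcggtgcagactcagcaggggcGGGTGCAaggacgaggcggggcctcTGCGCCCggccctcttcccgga

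Under ES, FDX1-OE cells differed from control cells across much of the transcriptome. Of the 11885 members 3754 were called higher and 1241 lower by limma at an adjusted p below 0.05, against 31.1% and 10.4% of the 12063 genes tested. Rises of at least 1 were called in 202 members (1.67% of genes tested) and falls of that size in 20 (0.166%), and 41 rises reached 2. In bulk RNA, more cells with a message and more message per cell cannot be told apart. The libraries of the groups did not overlap in 8268 of the 11885 members, every called member among them. A lack of overlap, where given below for a called gene, thus adds nothing to its call. The DMSO difference shares no library with the ES difference, but both use the same estimate of spread. In DMSO, FDX1 was the 1 member called (0.00829% of genes tested), with 401 members at an unadjusted p below 0.05 against 6170 under ES. The difference between the FDX1-OE effects in ES and DMSO was called for 2288 members, 1680 higher and 608 lower, against 13.9% and 5.06% of genes tested (19.0% in all).

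How many members count as higher or lower depended on how libraries were scaled, on how the spread was estimated and on single libraries. The FDX1-OE ES libraries had FPKM sums of 408018 and 403024, against 446949 and 447377 in control ES, and the median difference of all members was 0.16. With median-ratio scaling the median became 0.01 and the calls 1817 higher and 2206 lower; with equal FPKM totals these were 0.28, 5864 and 729, and with quantile normalisation 0.00, 1723 and 1751. Leaving out control ES replicate 1 gave 1783 higher and 705 lower calls, and leaving out control ES replicate 2 gave 2423 and 775. The called differences between the ES and DMSO effects fell to between 362 and 499 higher and between 172 and 231 lower when any 1 DMSO library was left out. They numbered 409 and 701 higher and 204 and 283 lower without control ES replicate 1 or 2, and 1003 and 1068 lower without FDX1-OE ES replicate 1 or 2. Called under every scaling and pseudocount tried, without the filter, with the ES libraries alone, with weights and with the block, and also without each library, were 1267 higher and 502 lower members; the stricter filter of 1 FPKM in all 4 ES libraries is not part of this count. For lists whose counts moved by more than 1.5 times, the numbers called higher and then lower are also given under other scalings. The 2 FDX1-OE ES libraries also differed more from each other (median absolute log2 difference 0.16) than the 2 control ES libraries (0.087), although all groups shared 1 estimate of spread. With the ES libraries alone 2465 members were called higher and 780 lower, and with weights by group 2173 and 851. List medians worded below as above, relative to or less that of all genes have the median of all genes tested (0.16) taken off. The other list medians are plain medians of the log2 differences. Counts of called list members stand beside 31.1% higher and 10.4% lower among all genes tested.

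**Figure D1:**
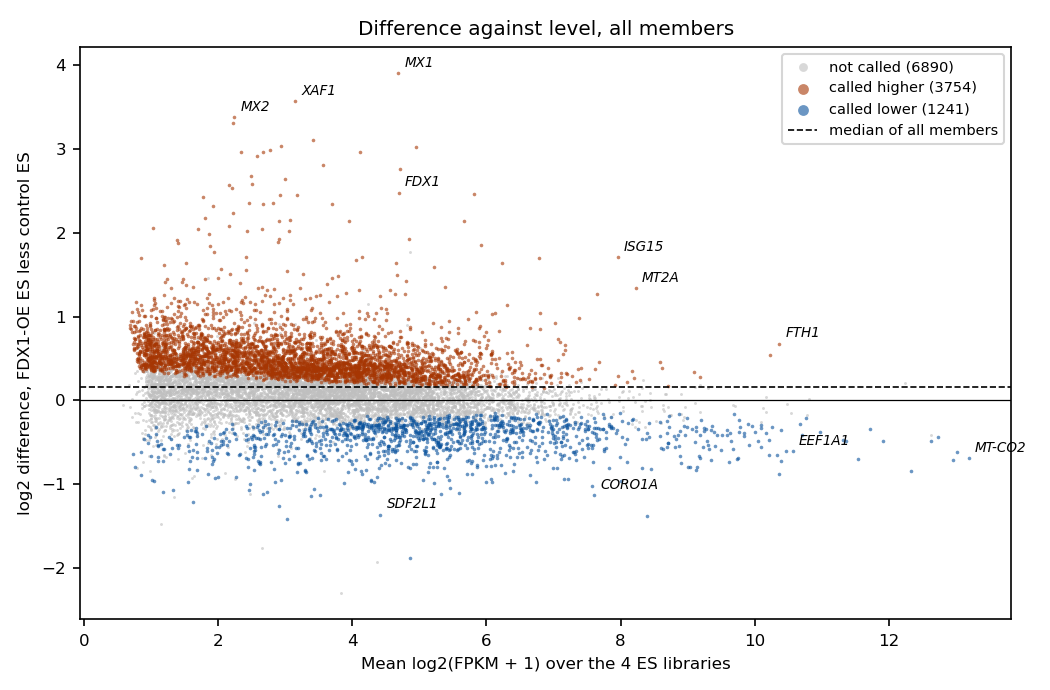
Each point is 1 of the 11885 members, with its mean log2(FPKM + 1) over the 4 ES libraries on the x axis and its log2 difference, FDX1-OE ES less control ES, on the y axis. Members called higher (red, 3754) outnumber those called lower (blue, 1241), and rises above 2 carry interferon-stimulated genes and FDX1. Many of the most abundant transcripts, such as MT-CO2 and EEF1A1, lie below 0, but FTH1 lies above it.

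Antiviral effectors, the proteins that block viral replication, were higher in FDX1-OE ES. Of 33 listed genes 32 were members and each of these was called higher; 7 were below 1 FPKM in both control ES libraries and thus entered through FDX1-OE ES, and the other 25 had at least 1 control ES library at or above that level. Their differences ran from 0.514 to 3.91, and 31 or 32 were called under each scaling. MX1, a GTPase that traps viral ribonucleoproteins, was at 5.96 and 5.35 FPKM in control ES and 77.9 and 125 FPKM in FDX1-OE ES. Every FDX1-OE ES library was thus far above either control ES library, a log2 difference of 3.91 (SE 0.19, adjusted p = 2.29e-05). In DMSO, MX1 was at 0.0212 and 0.0356 FPKM in control DMSO and 0.126 and 0.0761 FPKM in FDX1-OE DMSO, so that all 4 DMSO libraries lay below both ES groups.

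The same order of libraries held for other effectors. XAF1, an interferon-induced antagonist of the apoptosis inhibitor XIAP, was at 1.45 and 1.72 FPKM in control ES and 24.1 and 36.2 FPKM in FDX1-OE ES (3.57, SE 0.17, adjusted p = 2.29e-05). OAS2, which makes the 2-5A messenger that activates RNase L, was at 5.08 and 5.39 FPKM in control ES and 42.2 and 53.5 FPKM in FDX1-OE ES (2.96, SE 0.13, adjusted p = 2.15e-05). CMPK2, a mitochondrial nucleotide kinase, was at 3.61 and 3.36 FPKM in control ES and 24.2 and 38.2 FPKM in FDX1-OE ES (2.81, SE 0.18, adjusted p = 6.99e-05). In each of these the higher FDX1-OE ES value was replicate 2, and no value reached into the other group. IFI6, an interferon-induced protein of the endoplasmic reticulum and mitochondria, rose by 3.02, IFIT3 and IFIT1, which bind foreign 5′ ends of RNA, by 2.98 and 2.96, and IFI44 by 2.96. IFITM1, a membrane protein that hinders viral entry, rose by 3.03, and RSAD2, which makes a chain-terminating nucleotide, by 2.92; both are named because their promoters are shown, and IFITM1 has near-identical neighbours.

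Several effectors were near absent in control ES. MX2, the paralogue of MX1, was at 0.478 and 0.453 FPKM in control ES and 10.9 and 18.5 FPKM in FDX1-OE ES. IFI44L was at 0.403 and 0.562 FPKM in control ES and 11.4 and 16.3 FPKM in FDX1-OE ES, and SAMD9L, a restriction factor and growth suppressor, at 0.928 and 0.738 FPKM in control ES and 9.0 and 10.9 FPKM in FDX1-OE ES. DDX60L, a helicase of the antiviral response, was at 0.883 and 0.937 FPKM in control ES and 8.89 and 11.4 FPKM in FDX1-OE ES. These 4, with IFIT1 and the transporter gene SLC12A8 (0.405 and 0.544 FPKM in control ES and 6.24 and 7.7 FPKM in FDX1-OE ES), had the largest rises among members below 1 FPKM in both control ES libraries. Such members entered through FDX1-OE ES, so that their groups could not overlap by the choice of members.

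**Figure D2:**
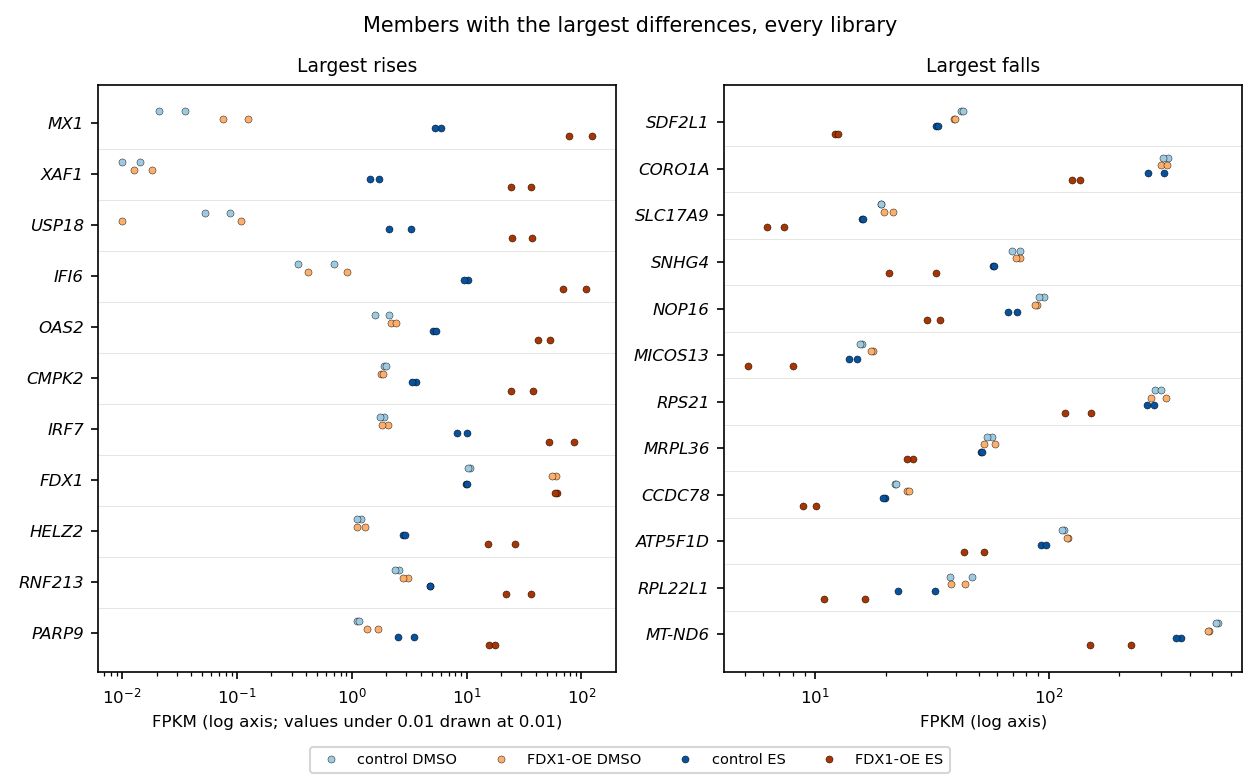
FPKM on a log axis in each of the 8 libraries for 11 of the largest rises (left) and the 12 largest falls (right) at a mean log2(FPKM + 1) of 3 or more (read-through and small RNA genes passed over), with 1 point a library and 1 colour a group. FDX1 is high in both FDX1-OE groups, whereas the other 10 rises are high in FDX1-OE ES, intermediate in control ES and low in both DMSO groups.

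The transcription factors of interferon signalling were among the rises. IRF9, the DNA-binding subunit of the factor ISGF3, was at 2.47 and 2.64 FPKM in control ES and 13.0 and 16.6 FPKM in FDX1-OE ES (2.14, SE 0.13, adjusted p = 5.23e-05). IRF7, which drives interferon genes, was at 8.19 and 10.0 FPKM in control ES and 52.2 and 86.8 FPKM in FDX1-OE ES (2.76, SE 0.21, adjusted p = 0.000141). USP18, which removes ISG15 and blunts receptor signalling, was at 3.26 and 2.11 FPKM in control ES and 24.8 and 37.0 FPKM in FDX1-OE ES (3.11, SE 0.20, adjusted p = 8.24e-05). All 3 were highest in FDX1-OE ES replicate 2, and their groups did not overlap. Of 15 members of the JAK-STAT and interferon regulatory factor list 12 were called higher and 3 were not called, with a median 0.48 above that of all genes.

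Interferon messages themselves were close to or at 0. IFNB1, the gene of interferon beta, was listed at 0.0373 and 0 FPKM in control ES and at 0.127 and 0.957 FPKM in FDX1-OE ES, and at 0 in all 4 DMSO libraries. It stayed under 1 FPKM and was not tested. IFNA1, IFNA2, IFNG, IFNE, IFNK and IFNL2 were listed at 0 in all 8 libraries, and IFNL1 and IFNL3 at 0 in all but FDX1-OE ES replicate 2. Of the 6 receptor chains 4 were called higher: IL10RB (0.52), IFNAR1 (0.42), IFNAR2 (0.36) and IFNGR2 (0.34). With control ES replicate 1 left out 1 of them was called, and with median-ratio scaling 1 was higher and 1 lower.

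Sensors of foreign nucleic acid rose with them. DDX58 (RIG-I), which detects 5′-triphosphate RNA, was at 1.15 and 1.14 FPKM in control ES and 8.05 and 10.2 FPKM in FDX1-OE ES (2.23, SE 0.13, adjusted p = 4.91e-05). IFIH1 (MDA5), which detects long double-stranded RNA, was at 2.0 and 2.17 FPKM in control ES and 9.95 and 13.9 FPKM in FDX1-OE ES (2.05, SE 0.16, adjusted p = 0.00018). The kinase EIF2AK2 (PKR), which stops translation on double-stranded RNA, was at 8.0 and 8.63 FPKM in control ES and 29.2 and 28.5 FPKM in FDX1-OE ES (1.68, SE 0.08, adjusted p = 2.15e-05), and the DNA sensor IFI16 rose by 0.97. None of these overlapped. In the list 10 of 14 were called higher and 4 not called, with a median 0.66 above all genes.

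ISG15, a ubiquitin-like modifier, was at 127 and 147 FPKM in control ES and 341 and 592 FPKM in FDX1-OE ES (1.71, SE 0.21, adjusted p = 0.000958). UBA7 and UBE2L6, the enzymes that attach it, rose by 1.93 and 1.36, so that all 4 members of the conjugation list, USP18 included, were higher. The ADP-ribosyltransferases PARP14 (2.35), PARP9 (2.15) and PARP12 (2.02) and the ubiquitin ligase DTX3L, PARP9's partner (1.89), rose as well. In the PARP list 9 of 10 were higher and 1, PARP1, lower (-0.23); PARP1 lost its call under some alternatives. The large helicase and ligase genes HELZ2 (2.45) and RNF213 (2.34) and PLSCR1, a phospholipid scramblase with antiviral activity (1.92), belong to the same set of large rises.

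Genes of antigen presentation by MHC class I had smaller rises. TAP1, which moves peptides into the secretory pathway, was at 15.0 and 15.1 FPKM in control ES and 31.5 and 44.7 FPKM in FDX1-OE ES (1.27, SE 0.14, adjusted p = 0.000668). Its adaptor TAPBP rose by 0.82, the trimming peptidases ERAP2 and ERAP1 by 0.72 and 0.63, and B2M, the shared light chain, by 0.39. In the list 13 of 20 were higher and 1 lower, with a median 0.25 above all genes; with median-ratio scaling 8 were higher, 2 lower and B2M was not called. The class II list had 1 of 12 higher and 1 lower, with CIITA, its regulator, at 0.37 and HLA-DPB1 at -0.33, and its median (-0.04) turned above 0 with equal FPKM totals (0.10); calls were 0 higher and 5 lower under median-ratio scaling and 3 higher and 0 lower under equal FPKM totals.

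Chemokine genes and NF-kB targets rose as well. CXCL10, a chemokine that draws T cells, was at 0.276 and 0.331 FPKM in control ES and 2.17 and 4.0 FPKM in FDX1-OE ES (1.61, SE 0.20, adjusted p = 0.000983). CCL22 was at 1.01 and 1.24 FPKM in control ES and 4.57 and 5.0 FPKM in FDX1-OE ES (1.44, SE 0.11, adjusted p = 0.000174) and CCL5 rose by 1.26. CCR7, the receptor that guides lymphocytes into lymph nodes, was at 0.575 and 0.723 FPKM in control ES and 5.19 and 8.0 FPKM in FDX1-OE ES (2.18, SE 0.17, adjusted p = 0.00018). Of 19 listed chemokine genes and receptors 9 were members, but 4 of these were below 1 FPKM in both control ES libraries and entered through FDX1-OE ES, where they are high, so that they had to differ by the choice of members. The other 5 were called higher as well, and 8 in all with median-ratio scaling. Of 28 NF-kB targets and subunits 24 were higher and 4 not called, 19 to 25 higher under the scalings; 4 members entered through FDX1-OE ES alone, and 20 of the other 24 were higher. In each of the other lists at most 2 members entered that way. NFKBIA, the inhibitor that NF-kB induces, was at 41.5 and 44.6 FPKM in control ES and 74.2 and 87.1 FPKM in FDX1-OE ES (0.89, SE 0.09, adjusted p = 0.000412), and CD83, a surface marker of B cell activation, rose by 0.77.

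**Figure D3:**
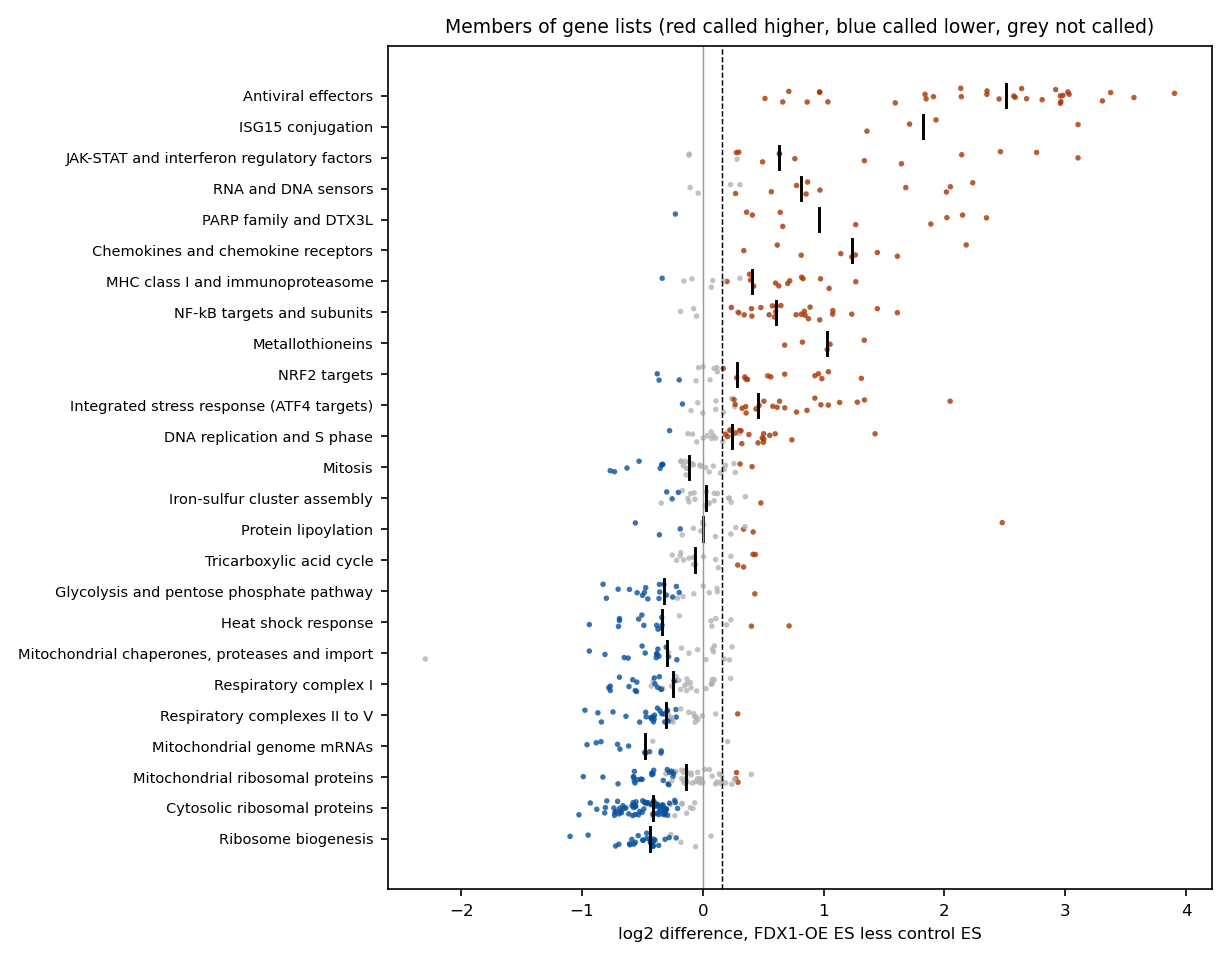
Log2 differences, FDX1-OE ES less control ES, of the members of 25 gene lists, with 1 point a gene (red called higher, blue called lower, grey not called), a black bar at each list's median and a dashed line at the median of all members. Antiviral effectors have the highest list median (2.51), and the ribosome, respiratory chain and glycolysis lists lie mostly below 0.

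Metallothioneins, small cysteine-rich proteins that bind copper and zinc, were higher in FDX1-OE ES. MT2A was at 186 and 189 FPKM in control ES and 382 and 591 FPKM in FDX1-OE ES (1.34, SE 0.20, adjusted p = 0.0021), with the FDX1-OE ES replicates apart from each other but both above control ES. MT1G was at 43.6 and 49.5 FPKM in control ES and 75.4 and 122 FPKM in FDX1-OE ES, MT1H at 38.2 and 39.5 FPKM in control ES and 68.6 and 97.3 FPKM in FDX1-OE ES and MT1F at 18.0 and 19.2 FPKM in control ES and 27.4 and 41.4 FPKM in FDX1-OE ES. MT1X, with the tightest replicates, was at 39.4 and 39.2 FPKM in control ES and 63.8 and 63.1 FPKM in FDX1-OE ES (0.68, SE 0.07, adjusted p = 0.000495). All 5 members were called higher, and 2 were without control ES replicate 1. In DMSO, the 5 had lower values in FDX1-OE than in control cells with a median of -0.45 with none called, for example 1.77 and 2.83 FPKM in control DMSO and 0.625 and 0.416 FPKM in FDX1-OE DMSO for MT1G. MT1A, MT1M, MT3 and MT4 were listed at 0 in all 8 libraries. Because these genes are nearly identical in sequence, reads may be split among them and each single value is uncertain.

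Transporters of copper and zinc were called in both directions, beside 31.1% higher and 10.4% lower among all genes tested. SLC30A1, the zinc exporter of the cell surface, was at 2.69 and 2.91 FPKM in control ES and 4.89 and 4.64 FPKM in FDX1-OE ES (0.60, SE 0.10, adjusted p = 0.00285). In the list 4 of 21 were higher and 3 lower, among them SCO2, a copper chaperone of cytochrome c oxidase (-0.62). The list's median (0.09) fell below 0 with median-ratio scaling and quantile normalisation; calls were 2 higher and 6 lower under median-ratio scaling and 9 higher and 2 lower under equal FPKM totals. The copper importer SLC31A1 was at 6.44 and 7.11 FPKM in control ES and 7.35 and 7.27 FPKM in FDX1-OE ES (0.10, SE 0.09, adjusted p = 0.391), and ATP7A, the copper export pump, at 1.44 and 1.67 FPKM in control ES and 2.07 and 2.11 FPKM in FDX1-OE ES (0.28, SE 0.12, adjusted p = 0.1); neither was called, and both were chosen after other values had been seen.

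Genes of the antioxidant factor NRF2 and of iron storage rose in part. HMOX1, which breaks down haem, was at 12.8 and 15.2 FPKM in control ES and 30.7 and 42.6 FPKM in FDX1-OE ES (1.31, SE 0.15, adjusted p = 0.000736). SQSTM1 (p62), an autophagy receptor and NRF2 target, was at 46.5 and 49.4 FPKM in control ES and 88.1 and 112 FPKM in FDX1-OE ES (1.04, SE 0.11, adjusted p = 0.000495). The ferritin chains FTH1 (0.68) and FTL (0.54) were among the most abundant rises, FTH1 at 980.3 and 1114 FPKM in control ES and 1474 and 1897 FPKM in FDX1-OE ES. The cystine importer SLC7A11 rose by 0.93 and NRF2's own gene NFE2L2 by 0.56. Of 23 NRF2 targets 13 were higher, 3 lower and 7 not called, and 8 were higher when either control ES library was left out in turn and 8 with median-ratio scaling. In the iron list 6 of 12 were higher and 1, the iron chaperone PCBP1, lower (-0.53), with 3 higher without control ES replicate 1; calls were 3 higher and 3 lower under median-ratio scaling and 5 higher and 4 lower under quantile normalisation.

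For the pathways that FDX1 is known to serve, calls are given beside 31.1% higher and 10.4% lower among all genes tested. In protein lipoylation FDX1 itself, LIPT2 (0.42) and DLST (0.34) were higher and PDHB (-0.19), NDUFAB1 (-0.36) and GCSH (-0.56) lower, of 15 members. LIAS, the lipoyl synthase, was at 7.29 and 5.3 FPKM in control ES and 7.38 and 6.2 FPKM in FDX1-OE ES and DLAT, a lipoylated subunit of pyruvate dehydrogenase, at 26.1 and 27.1 FPKM in control ES and 27.3 and 23.2 FPKM in FDX1-OE ES, with overlapping groups in both. Of 22 genes that assemble iron-sulfur clusters 1 rose and 3 fell, and of 18 genes of the tricarboxylic acid cycle 4 rose. Calls were 0 higher and 8 lower under median-ratio scaling and 6 higher and 0 lower under equal FPKM totals for cluster assembly, 0 higher and 10 lower under median-ratio scaling and 6 higher and 0 lower under equal FPKM totals for the cycle and 1 higher and 5 lower under median-ratio scaling and 6 higher and 2 lower under equal FPKM totals for lipoylation; without FDX1-OE ES replicate 2 the cycle had 4 higher and 5 lower, and 1 higher and 0 lower without control ES replicate 1. Only GCSH of these 3 lists, beside FDX1, kept its call under all alternatives, and the medians of all 3 lists changed sign between scalings. Among FDX1's partners the reductase FDXR was at 4.95 and 6.65 FPKM in control ES and 6.45 and 7.77 FPKM in FDX1-OE ES (0.26, SE 0.14, adjusted p = 0.158) and FDX2, the related ferredoxin, at 15.9 and 18.0 FPKM in control ES and 11.7 and 18.5 FPKM in FDX1-OE ES, with overlap. COX10, which makes haem for cytochrome c oxidase, rose by 0.39, and COX15 was at 0.13 without a call.

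Genes of the integrated stress response, which ATF4 switches on when translation initiation is curbed, rose broadly. ATF3, a transcription factor of this response, was at 0.851 and 0.375 FPKM in control ES and 5.14 and 6.08 FPKM in FDX1-OE ES (2.05, SE 0.16, adjusted p = 0.000169). ATF3 thus entered through FDX1-OE ES, and its groups could not overlap. WARS1, a tRNA synthetase that interferon also induces, was at 51.2 and 53.8 FPKM in control ES and 111 and 122 FPKM in FDX1-OE ES (1.13, SE 0.08, adjusted p = 0.000114). ATF5 was at 118 and 117 FPKM in control ES and 218 and 248 FPKM in FDX1-OE ES (0.98, SE 0.07, adjusted p = 0.000114), and the asparagine synthetase gene ASNS rose by 0.86. Of 30 members 21 were higher and 1 lower, with a median 0.30 above all genes, and 15 to 25 were higher under the scalings. Without the 2 members that entered through FDX1-OE ES alone, 19 of 28 were higher.

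Single genes of growth arrest and cell death rose. CDKN1A (p21), the cyclin-dependent kinase inhibitor, was at 0.933 and 0.72 FPKM in control ES and 5.47 and 7.06 FPKM in FDX1-OE ES (1.99, SE 0.14, adjusted p = 9.93e-05), GADD45B rose by 1.25 and the BH3-only gene PMAIP1 (NOXA) by 0.85. TNFSF10 (TRAIL), a death ligand that interferon induces, was at 0.117 and 0.164 FPKM in control ES and 1.46 and 1.71 FPKM in FDX1-OE ES. CDKN1A and TNFSF10 were below 1 FPKM in both control ES libraries and entered through FDX1-OE ES, so their groups could not overlap. The gasdermin GSDME rose by 1.20. Among anti-apoptotic genes BCL2A1 rose by 0.97 and BCL2L1 by 0.56. Of the p53 targets 9 of 21 were higher and 1 lower, of the BCL2 family 5 of 13 and 1, and of death receptors and caspases 11 of 18 and 1, beside 31.1% and 10.4% of all genes tested. Of members with at least 1 control ES library at 1 FPKM or more, 8 of 20 p53 targets and 9 of 16 death receptors and caspases were higher. The list medians less that of all genes were 0.10 for p53 targets, 0.087 for the BCL2 family and 0.21 for death receptors and caspases. Calls were 7 higher and 2 lower under median-ratio scaling and 13 higher and 1 lower under equal FPKM totals for p53 targets, 5 higher and 2 lower under median-ratio scaling and 9 higher and 0 lower under equal FPKM totals for the BCL2 family and 8 higher and 3 lower under median-ratio scaling and 6 higher and 3 lower under quantile normalisation for death receptors and caspases.

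In the list of immediate early genes 6 of 19 rose and 1 fell, shares near the 31.1% and 10.4% of all genes tested; calls were 6 higher and 3 lower under median-ratio scaling and 10 higher and 1 lower under equal FPKM totals. Beside ATF3, the AP-1 gene JUN was at 2.21 and 1.8 FPKM in control ES and 4.05 and 6.06 FPKM in FDX1-OE ES (0.99, SE 0.16, adjusted p = 0.00261), the ERK phosphatase gene DUSP5 rose by 0.99 and JUND by 0.62. In autophagy and the lysosome 14 of 34 were higher and 1 lower; calls were 10 higher and 3 lower under median-ratio scaling and 21 higher and 0 lower under equal FPKM totals. OPTN, a receptor for damaged mitochondria, was at 4.02 and 3.88 FPKM in control ES and 8.07 and 9.47 FPKM in FDX1-OE ES (0.98, SE 0.10, adjusted p = 0.000547), the lysosomal protease gene CTSB rose by 0.89 and MAP1LC3B (LC3B), which coats autophagosomes, by 0.48. The constitutive proteasome had 9 of 31 lower, with PSMA7 at -0.54 and PSMB3 at -0.50, but 3 when control ES replicate 1 and 2 when control ES replicate 2 was left out, and its median (-0.12) turned above 0 with equal FPKM totals (0.02); calls were 0 higher and 23 lower under median-ratio scaling and 2 higher and 2 lower under equal FPKM totals.

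Calls among S phase genes were mostly higher, and those among mitotic genes had no firm direction. Of all genes tested 31.1% were called higher and 10.4% lower, and the S phase median was only 0.08 above that of all genes. CCNE2, the cyclin of the entry into S phase, was at 15.7 and 16.5 FPKM in control ES and 42.7 and 47.2 FPKM in FDX1-OE ES (1.43, SE 0.09, adjusted p = 6.93e-05), and the ribonucleotide reductase gene RRM2 and the thymidylate synthase gene TYMS rose by 0.74 and 0.60. S phase genes had 17 of 32 higher and 1 lower, 10 higher when either control ES library was left out in turn; calls were 8 higher and 3 lower under median-ratio scaling and 26 higher and 0 lower under equal FPKM totals. The mitotic cyclin CCNB1 was at 91.6 and 89.6 FPKM in control ES and 59.0 and 47.3 FPKM in FDX1-OE ES (-0.77, SE 0.09, adjusted p = 0.000943), and CDC20, PLK1 and KIF20A fell by 0.73, 0.63 and 0.53. In the mitosis list 8 of 30 were lower and 2 higher, with 5 lower without control ES replicate 2, 15 without FDX1-OE ES replicate 1, and a median (-0.12) that turned above 0 with equal FPKM totals. Calls were 0 higher and 13 lower under median-ratio scaling and 7 higher and 6 lower under equal FPKM totals, and 7 higher and 7 lower without FDX1-OE ES replicate 2.

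Messages of the cytosolic ribosome were lower in FDX1-OE ES. Of 78 ribosomal protein genes 70 were called lower and the other 8 were not called, with a median of -0.42, -0.57 relative to all genes. RPS21 was at 261 and 282 FPKM in control ES and 117 and 151 FPKM in FDX1-OE ES (-1.03, SE 0.12, adjusted p = 0.00077). RPL3 was at 1633 and 1598 FPKM in control ES and 1013 and 1044 FPKM in FDX1-OE ES (-0.65, SE 0.05, adjusted p = 0.000217) and RPL10A at 743 and 738 FPKM in control ES and 467 and 451 FPKM in FDX1-OE ES (-0.69, SE 0.05, adjusted p = 0.000148). In each of these the 2 groups lay apart. Ribosomal protein genes have many near-identical pseudogenes, so single values are uncertain. Under the scalings 61 to 76 were lower, except that quantile normalisation gave 32 lower and 4 higher.

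Factors that build ribosomes in the nucleolus fell as well. NOP16 was at 72.6 and 66.9 FPKM in control ES and 34.2 and 29.9 FPKM in FDX1-OE ES (-1.10, SE 0.08, adjusted p = 0.000109), RRS1 at 60.7 and 58.6 FPKM in control ES and 31.5 and 29.3 FPKM in FDX1-OE ES (-0.95, SE 0.06, adjusted p = 8.59e-05) and BOP1 fell by 0.72. Of 31 ribosome biogenesis genes 27 were lower and 4 not called, and 22 to 30 were lower under the scalings. Translation factors had 12 of 30 lower and 1 higher (1 higher and 20 lower under median-ratio scaling and 3 higher and 7 lower under equal FPKM totals), among those lower the elongation factors EEF1A1 (-0.60) and EEF2 (-0.48) and EIF5A (-0.54). MYC, which drives such genes, was at 89.7 and 76.1 FPKM in control ES and 59.2 and 38.5 FPKM in FDX1-OE ES (-0.78, SE 0.17, adjusted p = 0.00877), and lost its call under 1 alternative.

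Mitochondrial messages from both genomes were lower. The 13 mRNAs of the mitochondrial genome made up 14.7 and 11.9% of the FPKM sum in FDX1-OE ES and 17.5 and 16.9% in control ES. Of these 11 were called lower and 2 not called, 9 and 12 were lower with equal FPKM totals and median-ratio scaling, and quantile normalisation gave 3 lower and 1 higher. MT-CO3, a subunit of cytochrome c oxidase, was at 7174 and 6679.7 FPKM in control ES and 4553 and 3271 FPKM in FDX1-OE ES (-0.84, SE 0.13, adjusted p = 0.00245). MT-ND6, the 1 mRNA of the light-strand transcript, was at 366 and 349.7 FPKM in control ES and 224 and 150.4 FPKM in FDX1-OE ES (-0.96, SE 0.15, adjusted p = 0.00235), and MT-ND2 was at 4404 and 4652 FPKM in control ES and 5772 and 4718 FPKM in FDX1-OE ES (0.21, SE 0.09, adjusted p = 0.107). Whether reads were counted by strand, which matters for the light-strand gene MT-ND6, is not given in the sources used here. In all of the called 11 the lowest value was FDX1-OE ES replicate 2.

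Nuclear genes of the respiratory chain were lower too, beside 10.4% lower among all genes tested. That share was larger among abundant and short genes, as given below. ATP5F1D, the delta subunit of ATP synthase, was at 92.4 and 96.8 FPKM in control ES and 43.1 and 52.5 FPKM in FDX1-OE ES (-0.98, SE 0.09, adjusted p = 0.000299), ATP5MC1, its rotor ring, fell by 0.87, and COX6B1 of complex IV by 0.64. In complex I NDUFB8 was at 85.9 and 88.9 FPKM in control ES and 46.4 and 54.9 FPKM in FDX1-OE ES (-0.78, SE 0.09, adjusted p = 0.000668) and NDUFA13 fell by 0.69. Complex I had 17 of 38 lower and 21 not called, and complexes II to V 25 of 38 lower and 1, SDHC, higher (0.29); 13 of the latter were lower without control ES replicate 2, and with equal FPKM totals the complexes had 14 and 13 lower and 3 and 1 higher. Mitochondrial ribosomal proteins had 23 of 66 lower and 3 higher, led by MRPL36 (-0.99), but calls were 0 higher and 36 lower under median-ratio scaling and 13 higher and 15 lower under equal FPKM totals, so the balance depended on the scaling. The import and chaperone list had 14 of 26 lower, 3 higher and 10 lower under equal FPKM totals, 9 without control ES replicate 1, with HSPE1, the cochaperonin, at 219 and 190.3 FPKM in control ES and 112 and 99.9 FPKM in FDX1-OE ES (-0.94, SE 0.08, adjusted p = 0.000304), TIMM13 at -0.81 and TOMM40 at -0.62. MICOS13, which shapes the cristae of the inner membrane, was at 15.1 and 13.9 FPKM in control ES and 5.15 and 8.03 FPKM in FDX1-OE ES (-1.06, SE 0.15, adjusted p = 0.00183).

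**Figure D4:**
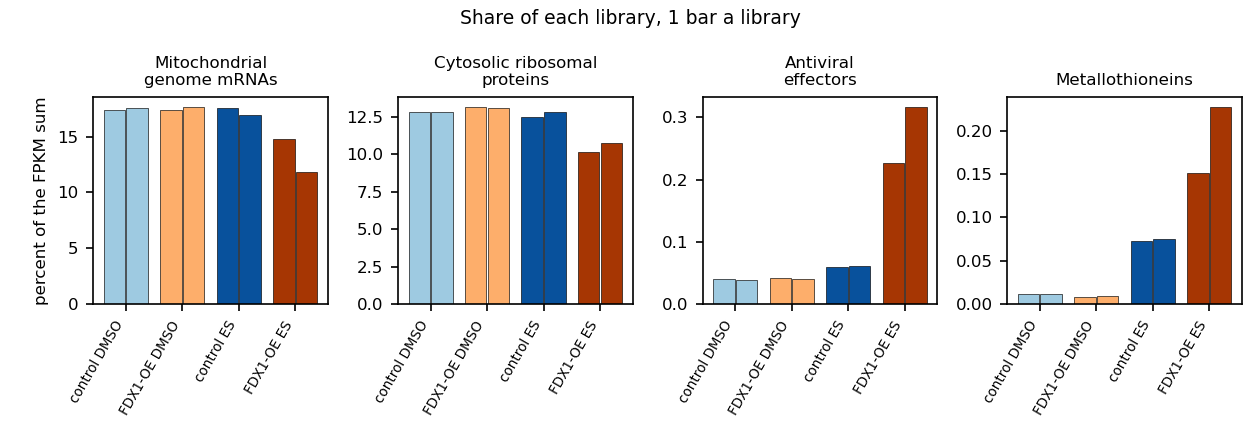
Percent of the FPKM sum of each library held by the 13 mitochondrial genome mRNAs, cytosolic ribosomal proteins, antiviral effectors and metallothioneins, with 1 bar a library and 2 bars a group. Both FDX1-OE ES bars are lower than all others for the first 2 sets and higher for the last 2, and they differ from each other more than the bars of other groups.

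Glycolysis, folding and lipid genes were lower in part. In the list of glycolysis and the pentose phosphate pathway 17 of 25 were lower and 1 higher, with a median of -0.32 that stayed below 0 under every scaling; quantile normalisation gave 10 lower. HK2, which commits glucose, was at 25.0 and 22.4 FPKM in control ES and 13.7 and 12.2 FPKM in FDX1-OE ES (-0.83, SE 0.08, adjusted p = 0.000495), PGK1 fell by 0.70 and ENO1 by 0.54. The heat shock list had 12 of 20 lower and 2 higher, and 6 lower without control ES replicate 1; calls were 5 higher and 9 lower under equal FPKM totals and 2 higher and 8 lower under quantile normalisation. HSPA8, the constitutive HSP70, was at 1131 and 1051 FPKM in control ES and 764 and 597 FPKM in FDX1-OE ES (-0.69, SE 0.10, adjusted p = 0.0021), and the HSP90 cochaperones AHSA1 and FKBP4 fell by 0.70 and 0.69.

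In the endoplasmic reticulum SDF2L1, a cofactor of protein folding, was at 32.9 and 33.6 FPKM in control ES and 12.1 and 12.6 FPKM in FDX1-OE ES (-1.36, SE 0.06, adjusted p = 2.15e-05), the largest called fall among members with a mean log2(FPKM + 1) of 3 or more once read-through, microRNA and tRNA genes are passed over. HSPA5 (BiP), the main chaperone there, was at 139.9 and 132 FPKM in control ES and 82.1 and 65.1 FPKM in FDX1-OE ES (-0.89, SE 0.10, adjusted p = 0.000781), while XBP1, the transcription factor of the unfolded protein response, rose by 0.64. The whole list had 5 of 21 higher and 7 lower, and its median (-0.04) turned above 0 with equal FPKM totals; calls were 1 higher and 10 lower under median-ratio scaling and 7 higher and 5 lower under equal FPKM totals. FASN, the fatty acid synthase, was at 72.9 and 67.1 FPKM in control ES and 40.9 and 41.8 FPKM in FDX1-OE ES (-0.74, SE 0.06, adjusted p = 0.000223). Cholesterol synthesis had 8 of 24 lower and 1 higher, with 4 lower without control ES replicate 1 and 13 without FDX1-OE ES replicate 1; calls were 0 higher and 14 lower under median-ratio scaling and 3 higher and 5 lower under equal FPKM totals.

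Other large falls were of genes outside these lists. CORO1A, an actin-binding protein of leukocytes, was at 264 and 311 FPKM in control ES and 136 and 125 FPKM in FDX1-OE ES (-1.13, SE 0.09, adjusted p = 0.00015). SLC17A9, a vesicular nucleotide transporter, was at 15.8 and 15.9 FPKM in control ES and 7.35 and 6.19 FPKM in FDX1-OE ES (-1.12, SE 0.09, adjusted p = 0.000175), and CCDC78 fell by 0.98. SNHG4, a snoRNA host transcript, was at 57.5 and 58.3 FPKM in control ES and 32.7 and 20.8 FPKM in FDX1-OE ES (-1.12, SE 0.17, adjusted p = 0.00198), and RPL22L1, a ribosomal protein paralogue, fell by 0.97 and lost its call under 1 alternative. Among falls to below 1 FPKM in both FDX1-OE ES libraries, ELMO3, an engulfment and motility gene, kept its call under every alternative that tested it. ELMO3 was at 1.74 and 1.46 FPKM in control ES and 0.776 and 0.807 FPKM in FDX1-OE ES (-0.54, SE 0.11, adjusted p = 0.00601). Among 16 common reference genes 4 were higher and 5 lower: ACTB, cytoplasmic actin, was at 4598 and 4541 FPKM in control ES and 3179 and 3366 FPKM in FDX1-OE ES (-0.48, SE 0.06, adjusted p = 0.00119) and GAPDH at 3215 and 3041 FPKM in control ES and 2163 and 2311 FPKM in FDX1-OE ES (-0.48, SE 0.06, adjusted p = 0.0013), while POLR2A, the large subunit of RNA polymerase II, rose by 0.63. The reference list had 1 higher and 8 lower under median-ratio scaling and 7 higher and 2 lower under quantile normalisation. ACTB and GAPDH lost their calls under quantile normalisation.

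**Figure D5:**
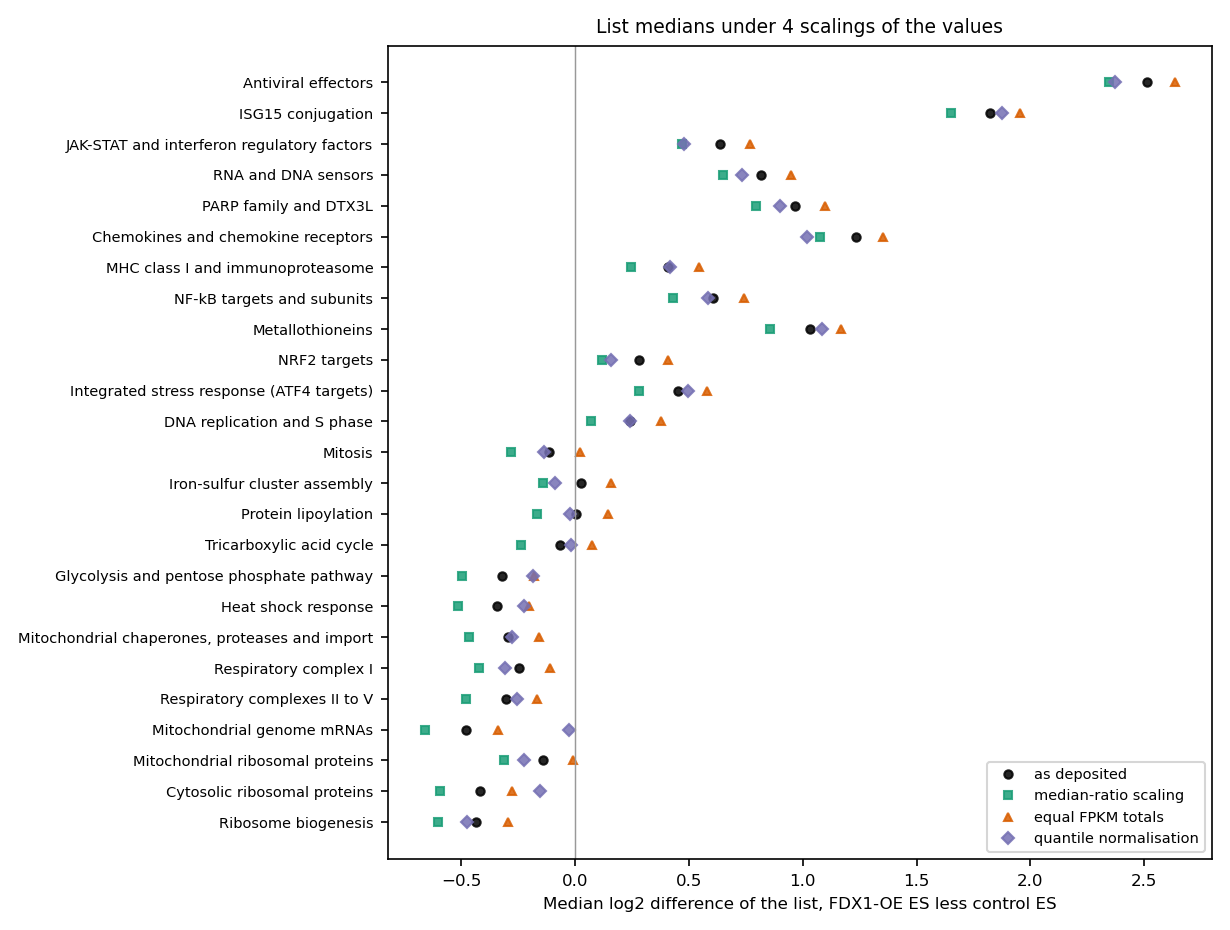
Median log2 difference, FDX1-OE ES less control ES, of the same 25 lists under the deposited scaling and 3 others, with 1 symbol a scaling. Interferon and metallothionein lists stay above 0 and ribosome biogenesis and respiratory lists below 0 under all 4, while lists near 0, such as mitosis and the tricarboxylic acid cycle, change sign.

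All 14 B cell markers were at 1 FPKM or more in the 4 ES libraries, 4 of them called higher and 3 lower, and when either control ES library was left out in turn 1 was higher and 1 or 2 lower; with median-ratio scaling these were 1 and 5. MS4A1 (CD20) was at 325 and 331 FPKM in control ES and 387 and 276 FPKM in FDX1-OE ES and overlapped, FCRL5, an Fc receptor-like protein of B cells, rose by 0.94 and CD79B, a chain of the B cell receptor, fell by 0.47. Germinal centre genes had 5 of 15 higher and 6 lower, and 2 and 3 when either control ES library was left out in turn. Under median-ratio scaling 2 were higher and 9 lower. SERPINA9 was at 0.56 and MEF2B at -0.45 in the main analysis. Among all genes tested 31.1% were higher and 10.4% lower, so the counts of higher genes in both lists were near that share. IRF4, a factor of plasma cell differentiation, was at 2.84 and 3.25 FPKM in control ES and 5.84 and 7.3 FPKM in FDX1-OE ES (0.90, SE 0.12, adjusted p = 0.00134), and SLAMF7 rose by 1.19.

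Markers of other cell types were mostly at or near 0. Of 16 T and NK cell markers TRAC reached 1 FPKM, at 71.7 and 70.1 FPKM in control ES and 81.6 and 80.2 FPKM in FDX1-OE ES, while CD3D, CD3G, CD2 and CD7 were listed at 0 in all 8 libraries. The summed T and NK markers were at 72.2 and 70.6 FPKM in control ES and 82.7 and 81.8 FPKM in FDX1-OE ES. Of 13 myeloid markers AIF1 reached 1 FPKM in all 4 ES libraries, with sums of 4.45 and 5.62 against 6.33 and 8.4 FPKM. Of 11 epithelial and fibroblast markers VIM did, with sums of 45.8 and 56.3 against 70.4 and 99.0 FPKM. The part of these sums in the rises above was not tested.

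The direction of the calls varied with the level of a gene. Coding members were split into 5 equal classes by their mean FPKM in the 4 DMSO libraries. These do not enter the differences, but they enter the shared spread behind the calls. Members were chosen by their ES values, so the lowest class can hold genes that entered through FDX1-OE ES alone. Part of its share of rises may thus be fixed by the choice of members. In the lowest class 52.8% were called higher and 0.541% lower, with a median of 0.40. In the highest class, at 33.2 FPKM or more, 13.0% were higher and 33.9% lower, with a median of -0.10. The same 2 classes had medians of 0.02 and -0.01 for FDX1-OE against control in DMSO. Transcript length moved with this. In the highest class, 47.5% of the shortest genes (by the longest GENCODE 29 transcript) and 11.2% of the longest were lower. Without ribosomal proteins 44.5% of these shortest genes were lower, near the share in complex I. The part of length in the falls of short ribosomal and respiratory genes was not tested. At 1 FPKM as a line, 486 members lay above it in both FDX1-OE ES libraries and neither control ES library, and 50 the other way round.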

How the data were processed

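Gene expression was measured by RNA-seq in 8 libraries of WSU-DLCL2 cells, 4 groups of 2; per the labels' protocols TRIzol was used for total RNA and a VAHTS Universal V6 kit for the libraries. The authors deposited 1 table of FPKM values, a unit read from the values since no header names it. Per the submitters' processing notes HISAT2, HTSeq, R 3.2.0 and hg19 were used, with roles not given in the sources used here. The 12063 genes that reached 1 FPKM in 2 or more of the 8 libraries were tested on log2(FPKM + 1) by limma 3.58.1 (R 4.3.3; group means, trended prior, 2 libraries a group sharing 1 spread), two-sided, p-values adjusted by Benjamini-Hochberg across the 12063, and calls at 0.05. FPKM keep no read counts, so no count model was fitted. Members and gene lists were chosen with earlier results of these data known. Named genes are FDX1, the 12 largest called rises and falls at a mean log2 of 3 or more without overlap, the 6 most abundant each way, the 6 largest each way from or to below 1 FPKM, up to 4 per list by smallest p, and the 8 with the smallest p for the difference between effects; genes outside it are marked or belong to the printed sequences or lists described. A few genes that this rule or the lists would name are not reported here. Scaling, pseudocount, filter, weights, block and left-out libraries were varied. Promoters came from RefSeq (GRCh38.p14), gene types and lengths from GENCODE 29.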

Additional observations from a re-analysis of the deposited data

Results flagged for a closer look

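For 130 of the genes named above, the effect of FDX1-OE under ES differed from its effect in DMSO by limma's test of that difference at an adjusted p below 0.05, 83 upward and 47 downward. FDX1 was not among them. Values below are the effect in ES less the effect in DMSO in log2(FPKM + 1). Both effects use separate control libraries, and how the count of such genes moves without single libraries is given in the report.

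Antiviral effectors stood apart most, with 3.81 for MX1, 3.56 for XAF1, 3.35 for MX2, 3.29 for IFI44L and 2.94 for IFIT1, 2.97 for IFIT3, 2.9 for IFI6, 2.99 for IFI44, 3.0 for IFITM1 and 2.98 for RSAD2, and 2.74 for OAS2, 2.87 for CMPK2, 2.56 for SAMD9L and 2.53 for DDX60L. The transporter gene SLC12A8 had 2.37. In MX1 the effect in DMSO was 0.10, but its values there were far below 1 FPKM. At such levels the 1 added to FPKM keeps log2 differences small. For effectors near absent in DMSO, the difference between effects is thus close to the effect under ES by the scale itself. Signalling and sensing genes gave 1.96 for IRF9, 2.7 for IRF7, 3.13 for USP18 and 0.40 for IL10RB, and 2.06 for DDX58, 2.05 for IFIH1, 1.65 for EIF2AK2 and 0.88 for IFI16. The ISG15, PARP and ubiquitin ligase genes gave 1.68 for ISG15, 1.83 for UBA7, 1.26 for UBE2L6, 2.26 for PARP14, 1.91 for PARP9 and 1.96 for PARP12, and 1.98 for DTX3L, 2.42 for HELZ2, 2.15 for RNF213 and 1.81 for PLSCR1. Antigen presentation gave 1.18 for TAP1, 0.87 for TAPBP, 0.74 for ERAP2, 0.67 for ERAP1 and 0.36 for B2M, with a negative difference of -0.49 for HLA-DPB1. Chemokine and NF-kB genes gave 1.64 for CXCL10, 1.62 for CCL22, 1.38 for CCL5, 2.2 for CCR7, 1.14 for NFKBIA and 0.81 for CD83.

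All 5 metallothionein members had a difference above their own effect under ES, and all 5 had lower values in FDX1-OE than in control cells in DMSO. The difference was 1.7 for MT2A, 2.13 for MT1G, 1.71 for MT1H, 1.27 for MT1F and 1.03 for MT1X. Zinc export, iron and NRF2 genes gave 0.88 for SLC30A1, 1.41 for HMOX1, 1.05 for SQSTM1, 0.72 for FTH1 and 0.51 for FTL, 0.87 for SLC7A11 and 0.42 for NFE2L2, and -0.44 for PCBP1. The lipoylation gene GCSH and the haem synthesis gene COX10 gave -0.67 for GCSH and 0.41 for COX10. Stress response genes gave 2.1 for ATF3, 1.21 for WARS1, 0.98 for ATF5, 0.83 for ASNS, 0.92 for JUN, 1.22 for DUSP5 and 0.63 for JUND. Arrest and death genes gave 1.76 for CDKN1A, 1.26 for GADD45B, 0.69 for PMAIP1, 1.16 for TNFSF10 and 1.31 for GSDME, and 0.84 for BCL2A1 and 0.61 for BCL2L1. Autophagy genes gave 0.89 for OPTN, 0.88 for CTSB and 0.57 for MAP1LC3B, and S phase genes 1.5 for CCNE2, 0.78 for RRM2 and 0.65 for TYMS.

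Negative differences were found for mitotic genes, with -0.85 for CCNB1, -0.65 for CDC20 and -0.52 for KIF20A, and for the proteasome, with -0.54 for PSMA7 and -0.46 for PSMB3. Ribosome and translation genes gave -1.04 for RPS21, -0.70 for RPL3, -0.72 for RPL10A, -1.02 for NOP16, -0.85 for RRS1 and -0.71 for BOP1, and -0.63 for EEF1A1, -0.48 for EEF2, -0.50 for EIF5A and -0.82 for MYC. Mitochondrial genes gave -0.85 for MT-CO3, -0.83 for MT-ND6, -1.05 for ATP5F1D, -0.79 for ATP5MC1 and -0.70 for COX6B1, -0.95 for NDUFB8, -0.60 for NDUFA13 and -1.0 for MRPL36, and -1.01 for HSPE1, -0.84 for TIMM13 and -1.21 for MICOS13. Glycolysis and chaperone genes gave -0.78 for HK2, -0.77 for PGK1, -0.57 for ENO1, -0.63 for HSPA8, -0.65 for AHSA1 and -0.70 for FKBP4, and -1.26 for SDF2L1 and -0.79 for HSPA5, with 0.71 for XBP1 in the other direction. Fatty acid synthesis gave -0.73 for FASN, the remaining falls -1.12 for CORO1A, -1.22 for SLC17A9, -1.15 for CCDC78, -1.15 for SNHG4 and -0.55 for ELMO3, and reference genes -0.54 for ACTB, -0.51 for GAPDH and 0.65 for POLR2A. B cell and plasma cell genes gave 0.97 for FCRL5, -0.39 for CD79B, 0.71 for SERPINA9, -0.37 for MEF2B, 1.06 for IRF4 and 1.01 for SLAMF7.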

How the results depend on the processing

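Of the 146 named genes called under ES, 121 kept their call and direction under every alternative that tested them, FDX1 and the named antiviral effectors among them. These were 18 alternatives, or 17 for genes that missed the filter of 1 FPKM in all 4 ES libraries, such as MX2 and IFI44L. At least 1 alternative ended the call of IFNAR1, IFNAR2, IFNGR2, PARP1, B2M, CIITA, HLA-DPB1, MT1G, MT1H, MT1F, SCO2, LIPT2, DLST, PDHB, NDUFAB1, COX10, EEF2, MYC, SDHC, ENO1, HSPA8, RPL22L1, ACTB, TRAC and GAPDH. Under quantile normalisation GAPDH turned to 0.0773, and MS4A1, not called in the main analysis, was -0.25 without FDX1-OE ES replicate 1 and 0.24 without replicate 2. Counts moved with the scaling, and the cause was not tested. Median-ratio scaling gave 1817 higher and 2206 lower members, 134 and 55 by at least 1, 705 higher and 1131 lower differences between the ES and DMSO effects, and a median of 0.00766. Equal FPKM totals gave 5864 and 729, 10 lower by at least 1, 3463 and 400 differences, and a median of 0.28. Quantile normalisation gave 1723 higher, 122 and 56 by at least 1, 685 higher differences, and a median of 0.00376. A pseudocount of 0.1 gave 549 higher and 49 lower by at least 1, and one of 0.5 gave 349 and 34. With the ES libraries alone 2465 were higher and 780 lower, with weights by group 2173 were higher and in DMSO 2 higher and 1 lower, and without the filter the differences numbered 831 and 324. Leaving out 1 library gave 1783 to 3789 higher and 705 to 1518 lower, 153 to 309 and 19 to 37 by at least 1, 1 to 2 higher and 0 to 1 lower in DMSO, 362 to 2454 and 172 to 1068 differences, a median of 0.14 to 0.18, and 2.46 to 2.50 for FDX1; where this left a group with 1 library, that library was assumed to vary like the other groups.

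Same-numbered libraries did not deviate together (correlations of -0.0499 to 0.0793), so the numbers do not pair them; with the replicate block 3614 members were higher and 1214 lower, and the differences between effects numbered 1370 and 550. Read totals are not given in the sources used here, and FPKM keep no whole reads, so depth could not be set beside each value; 2 libraries a group limit the estimate of spread.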

Other observations

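The tRNA genes of the mitochondrial genome did not move as 1 block. Of 22 members 10 were called higher, 8 lower and 4 were not called, beside 31.1% of all tested genes called higher and 10.4% lower. MT-TK, the lysine tRNA, was at 53.5 and 67.1 FPKM in control ES and 221 and 175 FPKM in FDX1-OE ES, a difference of 1.70 (SE 0.18, adjusted p = 0.000573). MT-TR, the arginine tRNA, was at 38.5 and 44.7 FPKM in control ES and 143 and 121 FPKM in FDX1-OE ES (1.64, SE 0.10, adjusted p = 6.99e-05), and MT-TM, the methionine tRNA, at 121 and 136 FPKM in control ES and 350.1 and 276 FPKM in FDX1-OE ES (1.27, SE 0.11, adjusted p = 0.000306). MT-TF, the phenylalanine tRNA at the start of the heavy-strand transcript, was at 573 and 515 FPKM in control ES and 278 and 155 FPKM in FDX1-OE ES (-1.38, SE 0.25, adjusted p = 0.00405), and MT-TT, the threonine tRNA, at 154 and 142 FPKM in control ES and 91.0 and 61.9 FPKM in FDX1-OE ES (-0.97, SE 0.15, adjusted p = 0.00219). The 2 groups lay apart in all 5, which were chosen after their values were seen. These gene models are short and abut the mRNAs, and whether the reads came from mature tRNA was not tested.

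Small nucleolar RNAs had 13 of 53 members lower and 1 higher, with a median of -0.21, beside 10.4% lower and 31.1% higher among all genes tested. Whether these reads came from mature small nucleolar RNAs or from their host transcripts was not tested. TXNIP, a glucose-responsive inhibitor of thioredoxin chosen after its values were seen, was at 9.15 and 10.7 FPKM in control ES and 25.2 and 27.0 FPKM in FDX1-OE ES (1.32, SE 0.09, adjusted p = 0.000103). TOMM6, a subunit of the outer membrane import pore, varied within groups: it was at 6.57 and 129.7 FPKM in control ES and 8.28 and 3.41 FPKM in FDX1-OE ES, at 129 and 131 FPKM in control DMSO and at 129.6 and 38.0 FPKM in FDX1-OE DMSO, and was not called.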
